A study of Mus musculus with 16 samples.

Results

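The genes described here are the collagen genes of the mouse, taken as every gene whose symbol reads Col, a number, a and a number. They are 44 of the 36528 NCBI Gene IDs in each expression file, and were grouped as 11 fibrillar collagens, 8 basement membrane collagens and 25 others (beaded filament, anchoring fibril, fibril-associated, short-chain network and transmembrane types, plus Col26a1 and Col28a1). RNA was sequenced from 16 libraries of cells sorted by flow cytometry from mouse intestinal tumours, titled as AKVPSL derived or AKVPL derived. There were 4 libraries in each of AKVPSL GFP+, AKVPSL GFP-, AKVPL GFP+ and AKVPL GFP-. Genotype is used here for this derivation of the tumour. The labels do not say whether stromal cells in a tumour carried the same alleles. The design text names the sorted cells by Lgr5, a receptor of intestinal stem cells, so GFP+ is read here as Lgr5-positive. The labels do not spell out the letters of the genotype names, which differ by the S. As background, mouse models named in this way combine altered alleles of genes that include Apc, Trp53 and, for the S, Smad4, with V for a villin-driven Cre and L for an Lgr5 reporter. The letters A, K, V, P and L stand in the names of all 4 groups, controls included. The labels give no age, no Cre driver, no number of tumours or clones and no gate other than GFP. Nor do they say that replicates were separate animals, so each p-value measures spread among libraries, which may be technical.

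Collagens are secreted or membrane proteins whose chains wind around each other into a helix. Fibrillar types I, III and V form the tensile fibres of stroma and are made mostly by fibroblasts. Type IV builds the sheet-like network under epithelium and around vessels, types XV and XVIII are proteoglycans linked to that sheet, type VI forms beaded filaments beside it, and type VII forms the anchoring fibrils that tie an epithelial basement membrane to the stroma. In the intestine both epithelial and stromal cells are known to contribute basement membrane chains.

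The deepest library, AKVPSL GFP+ replicate 1, held 41.602 M counts (M is 1000000) and the shallowest, AKVPL GFP- replicate 4, held 10.881 M. Lgr5 was 3.98-fold higher in GFP+ than in GFP- cells of AKVPSL tumours and 4.52-fold higher in those of AKVPL tumours. Colon stands in every title, but in the tissue field of 1 library alone (AKVPSL GFP- replicate 1), the other 15 being given as small intestine. Summed CPM (counts scaled to 1000000 per library) of 14 epithelial markers were 9819 to 10290 in AKVPSL GFP+, 11380 to 12050 in AKVPSL GFP-, 10200 to 11690 in AKVPL GFP+ and 8346 to 9752 in AKVPL GFP- libraries, so epithelial RNA was present in every library. Summed CPM of 12 fibroblast markers were 100.5 to 182 in AKVPSL GFP+, 280.2 to 586 in AKVPSL GFP-, 245 to 309.7 in AKVPL GFP+ and 677 to 811 in AKVPL GFP- libraries. Gsn alone averaged 92.35, 258.8, 187.8 and 280.6 CPM in the same order of groups, of mean sums of 134.9, 465.6, 275.9 and 730.4 CPM. No marker of the fibroblast, pericyte, endothelial or leukocyte lists was at 0 in all 4 libraries of any group. In sorted bulk cells, fewer cells of a type and less RNA per cell cannot be told apart.

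The promoters of 5 genes are shown because their genes carry the largest genotype difference among those with over 3 summed counts in each group (Col7a1) or lie head to head with another collagen gene (Col4a1 with Col4a2, Col4a5 with Col4a6). Col4a4 and Col4a3, whose annotated genes overlap by 114 bases, are not shown, because no window was available for Col4a3. Each sequence shown is the RefSeq window on GRCm38.p6 from 250 bases before to 50 bases after a gene start, written 5′ to 3′ on the gene's strand. Capitals in Col4a1 (chr8:11312777-11313076, minus strand) and Col4a2 (chr8:11312555-11312854, plus strand) mark the 78 bases that both windows share, read on opposite strands. Capitals in Col7a1 (chr9:108953336-108953635, plus strand), Col4a5 (chrX:141475169-141475468, plus strand) and Col4a6 (chrX:141474027-141474326, minus strand) mark CAGAC, a SMAD-binding sequence, and GGGCGG, the GC box, on either strand.
Col4a1: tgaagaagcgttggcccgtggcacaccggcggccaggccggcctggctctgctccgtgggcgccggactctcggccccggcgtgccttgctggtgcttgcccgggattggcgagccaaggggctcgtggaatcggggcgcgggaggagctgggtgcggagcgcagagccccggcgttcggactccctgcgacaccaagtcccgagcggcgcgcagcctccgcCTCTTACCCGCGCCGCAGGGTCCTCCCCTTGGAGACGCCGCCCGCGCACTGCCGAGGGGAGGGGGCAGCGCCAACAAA
Col4a2: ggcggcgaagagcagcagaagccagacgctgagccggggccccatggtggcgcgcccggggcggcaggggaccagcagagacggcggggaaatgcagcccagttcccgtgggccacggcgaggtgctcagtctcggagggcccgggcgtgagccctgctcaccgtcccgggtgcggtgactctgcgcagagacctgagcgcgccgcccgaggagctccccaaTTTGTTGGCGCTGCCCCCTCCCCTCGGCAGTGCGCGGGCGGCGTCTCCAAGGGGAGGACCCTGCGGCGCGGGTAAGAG
Col7a1: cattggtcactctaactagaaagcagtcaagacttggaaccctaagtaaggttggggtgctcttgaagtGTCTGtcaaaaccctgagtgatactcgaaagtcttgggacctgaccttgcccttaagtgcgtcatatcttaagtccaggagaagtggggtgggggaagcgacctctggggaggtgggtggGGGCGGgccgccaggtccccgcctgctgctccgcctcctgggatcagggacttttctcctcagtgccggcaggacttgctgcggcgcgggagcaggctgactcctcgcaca
Col4a5: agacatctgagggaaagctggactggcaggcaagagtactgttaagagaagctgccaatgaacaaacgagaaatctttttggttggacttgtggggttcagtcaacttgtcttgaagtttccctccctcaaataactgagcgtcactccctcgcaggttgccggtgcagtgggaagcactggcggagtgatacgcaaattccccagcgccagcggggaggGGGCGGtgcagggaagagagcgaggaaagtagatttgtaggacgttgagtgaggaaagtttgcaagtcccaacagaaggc
Col4a6: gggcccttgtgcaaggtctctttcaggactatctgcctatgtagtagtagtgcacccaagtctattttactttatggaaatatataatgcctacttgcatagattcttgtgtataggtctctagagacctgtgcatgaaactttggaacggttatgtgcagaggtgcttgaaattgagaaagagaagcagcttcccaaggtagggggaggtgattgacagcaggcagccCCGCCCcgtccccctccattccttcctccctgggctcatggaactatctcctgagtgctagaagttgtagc
The start sites on which the windows are set lie 21 bases apart for Col4a1 and Col4a2, and 1343 bases apart for Col4a6 and Col4a5. Such a site can lie inside the annotated gene. That of Col4a1 is at 11312826, where the gene runs to 11312889. CAGAC or its complement GTCTG was found once in each of the Col7a1 and Col4a2 windows and not in those of Col4a1, Col4a5 or Col4a6. Over the genome it stands in 49.6% of 32851 windows of the same length, and in 20 of the 38 windows of the 35 collagen genes that have one. GGGCGG or CCGCCC stands in 35.7% of all windows and in 23 of those 38, and was found once in each of the Col7a1, Col4a1, Col4a5 and Col4a6 windows and 3 times in the Col4a2 window. These matches describe letters only.

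Collagen genes took 0.112% to 0.223% of counts in AKVPSL GFP+, 0.302% to 0.473% in AKVPSL GFP-, 0.219% to 0.282% in AKVPL GFP+ and 0.797% to 1.385% in AKVPL GFP- libraries. The AKVPL GFP- libraries therefore stood above all others, and the GFP- libraries of each genotype stood above its GFP+ libraries. Levels between genes were compared by the deposited RPKM (reads per kilobase of gene and per 1000000 reads), averaged over the 4 groups. Col1a1 was highest at 176 RPKM, followed by Col1a2 (125 RPKM), Col3a1 (91.7 RPKM), Col4a1 (58.4 RPKM), Col18a1 (46.1 RPKM), Col4a2 (40.6 RPKM) and Col6a1 (36.6 RPKM). Of the 44 genes, 39 passed the filter on low counts and were tested. The 5 that did not pass were Col4a4, Col4a6, Col6a4, Col19a1 and Col25a1. Their summed counts over the 4 libraries of a group reached at most 39 (Col4a4 in AKVPL GFP-).

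The make-up of the collagen transcripts differed between the groups. Basement membrane genes held 48.2 ± 12.4% of summed collagen RPKM in AKVPSL GFP+ libraries and 29.1 ± 7.67% in AKVPSL GFP- libraries, and 36.7 ± 5.43% in AKVPL GFP+ libraries against 16.9 ± 3.34% in AKVPL GFP- libraries (SD, n = 4). Fibrillar genes held 41.1 ± 11.7%, 57.3 ± 6.98%, 44.2 ± 6.78% and 66.3 ± 4.55% in the same order of groups. In AKVPSL the ranges of the basement membrane share overlapped between GFP+ (33.2% to 62.7%) and GFP- (21.9% to 39.0%), while in AKVPL they did not. Between AKVPSL libraries of the same number the GFP+ library had the larger share, though the labels do not state that the numbers mark pairs. The shares were 62.7% and 31.2%, 44.8% and 39.0%, 52.3% and 21.9%, and 33.2% and 24.3% in GFP+ and GFP-. Across numbers, GFP+ replicate 4 (33.2%) lay below GFP- replicate 2 (39.0%). In AKVPSL GFP+ cells the highest collagen by RPKM was Col18a1 (41.2 ± 4.48), above Col1a1 (30.5 ± 20.7), but by less than the spread of Col1a1. Over all 4 groups Col1a1 stayed at 1.36 to 1.47 times Col1a2 in mean RPKM ratio. The RPKM ratio of Col4a1 to Col4a2 was 1.53 ± 0.129 in AKVPSL GFP+ against 1.21 ± 0.109 in AKVPSL GFP-, and 1.92 ± 0.133 in AKVPL GFP+ against 1.43 ± 0.0762 in AKVPL GFP-.

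**Figure D1:**
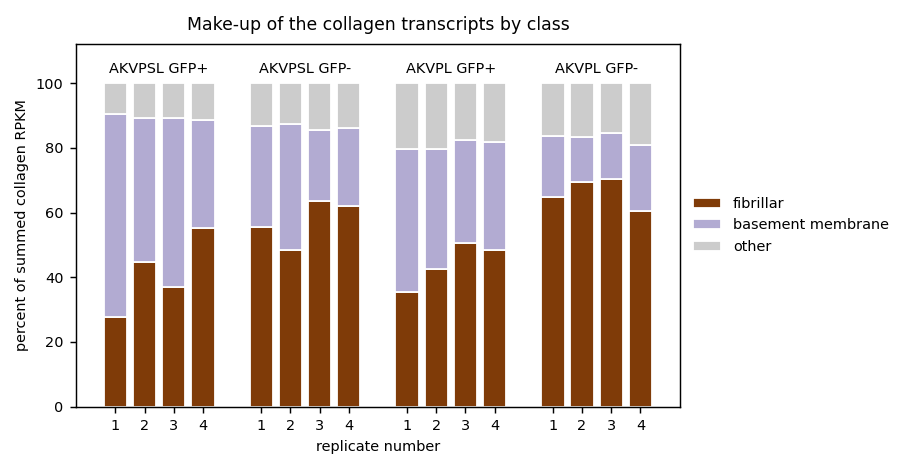
Share of the summed collagen RPKM (percent, vertical axis) held by fibrillar, basement membrane and other collagen genes in each of the 16 libraries, set out by group and replicate number. The fibrillar part is 60.5% to 70.5% in the AKVPL GFP- libraries and 48.3% to 63.6% in the AKVPSL GFP- libraries, and is smallest in AKVPSL GFP+ replicate 1, with 27.8%.

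**Figure D2:**
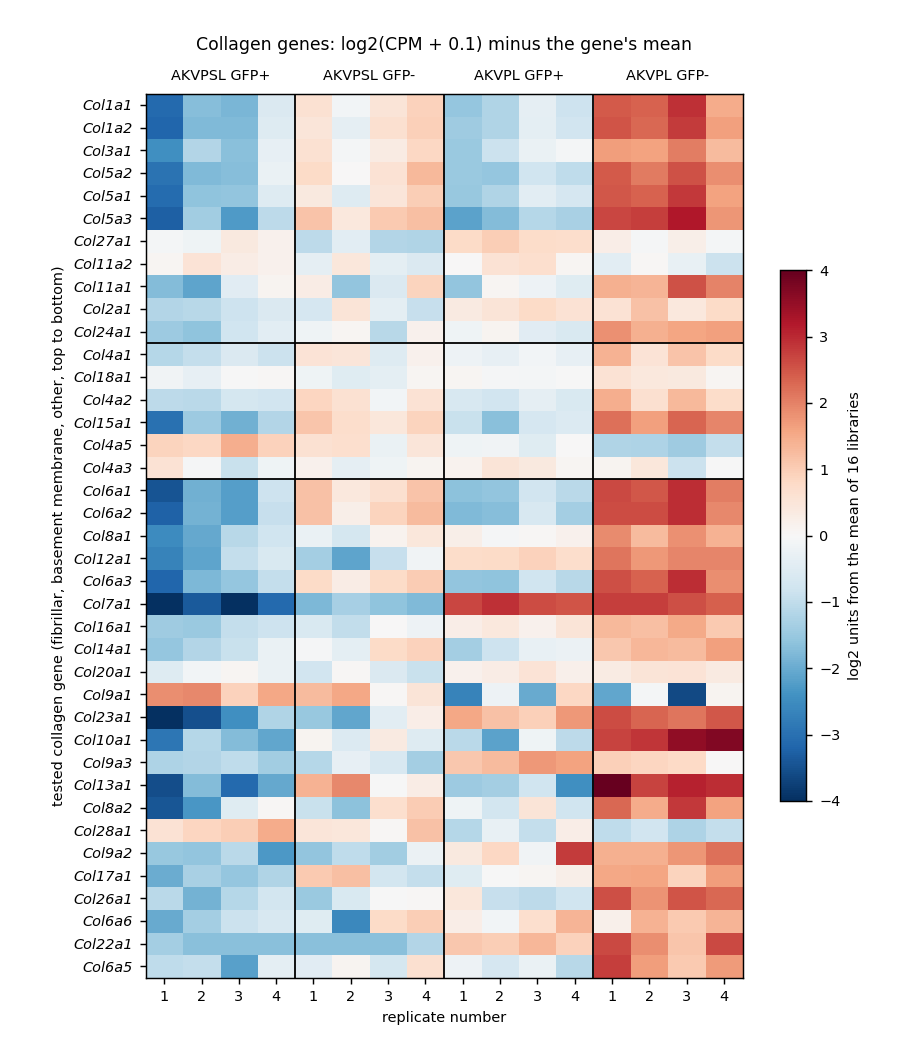
Level of the 39 tested collagen genes in the 16 libraries, as log2(CPM + 0.1) minus the gene's mean over all libraries, with genes ordered by class and then by mean RPKM. Most rows are highest in the 4 AKVPL GFP- libraries, while Col4a5, Col9a1 and Col28a1 are highest in AKVPSL and Col27a1 and Col11a2 are higher in GFP+ libraries.

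GFP+ cells were compared with GFP- cells within each genotype to ask how Lgr5-positive cells differ from the rest. Collagen genes were mostly lower in GFP+ cells. In AKVPSL, 22 of the 39 tested genes fell and 2 rose (edgeR quasi-likelihood test, adjusted p under 0.05). Of all 18072 genes tested, 24.6% fell and 22.4% rose in that comparison, or 47.0% in either direction. The median log2 fold change was -1.38 for the collagen genes and -0.01 for all genes. In AKVPL, 26 collagen genes fell and 4 rose, where 16.5% of all genes fell and 22.6% rose (39.1% in either direction), with medians of -1.60 and 0.14. The split of all calls in AKVPL depended on scaling. With TMM 57.8% of them were higher in GFP+, by DESeq2 size factors 42.1%, by library totals 44.9%, and by the epithelial markers 9.555%, a scaling that put the median of all genes at -0.25 and that of the collagen genes at -1.99. With the replicate number as a block, 5 collagen genes rose in AKVPSL rather than 2, the added ones being Col9a1 (0.72), Col11a2 (0.49) and Col20a1 (0.35). The count there was 1 without AKVPSL GFP+ replicate 3 and 4 without AKVPSL GFP- replicate 2, and in AKVPL 2 rather than 4 rose without AKVPL GFP+ replicate 3 or AKVPL GFP- replicate 4. There were 19 genes that fell in both genotypes and 2 that rose in both, Col27a1 and Col4a5.

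Among the fibrillar genes, those of types I, III and V fell in both genotypes, 7 of 11 members having fallen in AKVPSL and 8 of 11 in AKVPL. Col1a1 (chromosome 11, 94936224 to 94953042), one chain of type I, had 52.7, 142, 129 and 307 CPM in AKVPSL GFP+ libraries, against 703, 427, 665 and 873 CPM in AKVPSL GFP- libraries. It had 159, 199, 355 and 259.8 CPM in AKVPL GFP+ libraries, against 2501, 2386, 3469 and 1290.1 CPM in AKVPL GFP- libraries. In both genotypes every GFP+ library lay below every GFP- library, and AKVPSL GFP+ replicate 1 was the lowest of the 16. The log2 fold changes were -2.08 ± 0.46 (SE, adjusted p = 0.00239) in AKVPSL and -3.31 ± 0.49 (adjusted p = 0.000139) in AKVPL. Col1a2, the partner chain of type I, had 39.9, 105, 106 and 253 CPM in AKVPSL GFP+ libraries and 505, 278, 560.5 and 691 CPM in AKVPSL GFP- libraries. In AKVPL tumours the GFP+ libraries held 134, 157, 272 and 212 CPM, against 2037, 1762, 2509 and 1116 CPM in the GFP- libraries. It fell by 2.01 log2 units in AKVPSL and 3.26 in AKVPL, in step with Col1a1 and without overlap.

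Col3a1, which forms type III and mixes with type I in fibrils, had 69.9, 167, 119 and 301 CPM in AKVPSL GFP+ libraries and 583, 355, 473 and 679 CPM in AKVPSL GFP- libraries. In AKVPL tumours the GFP+ libraries held 137, 208, 318 and 355 CPM, against 1196, 1165, 1579 and 916 CPM in the GFP- libraries. Here too GFP+ and GFP- libraries did not overlap, and the log2 fold changes were -1.67 and -2.25. Col5a2, a chain of the type V collagen that nucleates fibrils, had 8.57, 19.7, 20.8 and 56.5 CPM in AKVPSL GFP+ libraries and 114, 68.2, 100.4 and 168 CPM in AKVPSL GFP- libraries. In AKVPL tumours the GFP+ libraries held 24.05, 23.0, 38.5 and 33.3 CPM, against 369, 283, 392 and 244 CPM in the GFP- libraries. The sorts were again apart, by -2.10 log2 units in AKVPSL and -3.44 in AKVPL. Among the fibrillar genes Col5a3 fell furthest, by 2.78 log2 units in AKVPSL and 4.24 in AKVPL. Col5a1 and Col24a1 also fell in both, though the call of Col24a1 in AKVPSL (-1.37) rested on 12 summed counts in GFP+ and 26 in GFP- cells. That call ended with the replicate block (-1.34) and without AKVPSL GFP+ replicates 1 or 2 or AKVPSL GFP- replicates 1, 2 or 4 (-1.40 to -1.12). Col11a1, a cartilage-type fibrillar chain, fell in AKVPL (-2.48), with -0.97 in AKVPSL. Col2a1, the main cartilage collagen, did not pass the threshold (-0.75 and -0.21).

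Col27a1 and Col11a2 moved the other way from the rest of their class. Col27a1 (chromosome 4, 63214009 to 63334991), a fibrillar collagen known from developing cartilage, had 60.4, 56.5, 83.4 and 72.7 CPM in AKVPSL GFP+ libraries, against 30.8, 48.3, 28.2 and 27.6 CPM in AKVPSL GFP- libraries. It had 109.7, 126, 107 and 104 CPM in AKVPL GFP+ libraries, against 76.8, 62.1, 74.8 and 60.4 CPM in AKVPL GFP- libraries. The sorts did not overlap in either genotype, and the log2 fold changes were 1.02 ± 0.16 (adjusted p = 9.41e-05) in AKVPSL and 0.70 ± 0.16 (adjusted p = 0.0021) in AKVPL. With scaling on the epithelial markers, the AKVPL value was 0.32 and no longer passed. Col11a2, a chain of type XI, had 18.4, 27.1, 28.9 and 19.0 CPM in AKVPL GFP+ libraries, against 13.5, 18.7, 14.8 and 9.99 CPM in AKVPL GFP- libraries. These groups overlapped, and the log2 fold change of 0.70 ± 0.23 (adjusted p = 0.0208) lost its call without any 1 of AKVPL GFP+ replicates 2 (0.62) and 3 (0.59) and AKVPL GFP- replicates 1 (0.66) and 4 (0.58). In AKVPSL Col11a2 had 19.2, 26.5, 22.6 and 20.4 CPM in GFP+ libraries, against 14.1, 25.1, 13.8 and 12.1 CPM in GFP- libraries. That difference, 0.45 ± 0.23, did not pass, but was past the threshold with the replicate block (0.49) and without AKVPSL GFP- replicate 2 (0.73).

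Basement membrane genes split by chain. Of 6 tested members, 3 fell and 1 rose in AKVPSL, and 4 fell and 1 rose in AKVPL. Col4a1 (chromosome 8, 11198423 to 11312889), one of the 2 chains of the widespread form of type IV, had 185, 208, 275 and 224 CPM in AKVPSL GFP+ libraries, against 593, 564, 284 and 457 CPM in AKVPSL GFP- libraries. It had 356, 322, 375 and 324 CPM in AKVPL GFP+ libraries, against 1076, 591, 906 and 688 CPM in AKVPL GFP- libraries. The sorts did not overlap, and the log2 fold changes of -1.09 ± 0.21 (adjusted p = 0.000579) and -1.24 ± 0.21 (adjusted p = 0.000229) both passed. Its head-to-head partner Col4a2, whose promoter window holds the shared capitals above, had 112.3, 111, 143 and 137 CPM in AKVPSL GFP+ libraries and 425, 355, 215 and 347 CPM in AKVPSL GFP- libraries. In AKVPL tumours the GFP+ libraries held 150.0, 138, 181 and 154 CPM, against 645, 364, 577 and 387 CPM in the GFP- libraries. It fell by 1.42 log2 units in AKVPSL and 1.66 in AKVPL, again with no overlap. The annotated genes overlap by 85 bases and the strand of counting is not given, so reads from that stretch cannot be assigned.

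Col15a1, the type XV proteoglycan, had 8.02, 23.8, 17.2 and 29.0 CPM in AKVPSL GFP+ libraries and 139.6, 105, 89.7 and 121 CPM in AKVPSL GFP- libraries. In AKVPL tumours the GFP+ libraries held 34.6, 20.1, 40.8 and 44.7 CPM, against 299.6, 201, 327 and 251 CPM in the GFP- libraries. It fell by 2.55 log2 units in AKVPSL and 2.95 in AKVPL, with no overlap. Col18a1, the type XVIII proteoglycan that yields endostatin, had 422, 368, 456 and 474 CPM in AKVPSL GFP+ libraries, against 410.3, 329.9, 354 and 482 CPM in AKVPSL GFP- libraries. In AKVPL it had 483, 444, 433 and 460.4 CPM in GFP+ libraries, against 696, 615, 610.1 and 491 CPM in GFP- libraries. The AKVPSL libraries overlapped (log2 fold change 0.13 ± 0.12), while the AKVPL libraries did not (-0.41 ± 0.12, adjusted p = 0.0143).

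Col4a5 (chromosome X, 141475370 to 141689236), the type IV chain altered in human X-linked Alport syndrome, rose. It had 72.1, 68.7, 106 and 72.9 CPM in AKVPSL GFP+ libraries, against 58.4, 61.8, 32.3 and 53.8 CPM in AKVPSL GFP- libraries. In AKVPL it had 34.3, 34.9, 27.5 and 39.3 CPM in GFP+ libraries, against 16.6, 16.2, 14.3 and 19.8 CPM in GFP- libraries. Neither genotype showed overlap, and the log2 fold changes were 0.63 ± 0.18 (adjusted p = 0.00845) in AKVPSL and 1.03 ± 0.19 (adjusted p = 0.000354) in AKVPL. Without AKVPSL GFP+ replicate 3, the AKVPSL value was 0.44 and did not pass. By RPKM, Col4a5 stood at 0.407 ± 0.0394 of Col4a1 in AKVPSL GFP+ against 0.125 ± 0.00957 in AKVPSL GFP- libraries, and at 0.114 ± 0.0231 in AKVPL GFP+ against 0.0249 ± 0.00825 in AKVPL GFP- libraries. Its neighbour Col4a6 had 7, 3, 5 and 0 summed counts in AKVPSL GFP+, AKVPSL GFP-, AKVPL GFP+ and AKVPL GFP-, and was not tested. Col4a3, a chain that assembles with that of Col4a5 in kidney, passed in no comparison (0.03 and 0.32 here). Its annotated gene overlaps that of Col4a4 by 114 bases, and reads from that stretch cannot be assigned either.

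Of the other collagens, 12 of 22 tested fell and 0 rose in AKVPSL, and 14 fell and 1 rose in AKVPL. The 3 main chains of type VI fell furthest among the abundant genes. Col6a1 (chromosome 10, 76708792 to 76726044) had 6.54, 18.9, 15.4 and 40.5 CPM in AKVPSL GFP+ libraries, against 161, 95.5, 111.7 and 158 CPM in AKVPSL GFP- libraries. It had 22.8, 24.2, 41.9 and 33.6 CPM in AKVPL GFP+ libraries, against 449, 406, 555 and 299 CPM in AKVPL GFP- libraries. No GFP+ library reached the level of a GFP- library, and the log2 fold changes were -2.71 ± 0.44 (adjusted p = 0.00025) and -3.81 ± 0.45 (adjusted p = 2.52e-05). Col6a2, a second chain of the same filament, had 6.31, 16.2, 13.0 and 32.0 CPM in AKVPSL GFP+ libraries and 135, 71.6, 112.4 and 146 CPM in AKVPSL GFP- libraries. In AKVPL tumours the GFP+ libraries held 17.6, 18.5, 38.4 and 23.2 CPM, against 370.5, 370.4, 467 and 229.8 CPM in the GFP- libraries. It fell by 2.80 log2 units in AKVPSL and 3.88 in AKVPL without overlap, and Col6a3, the long chain, by 2.42 and 3.73.

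Col8a1, a short-chain network collagen of vessel walls and the cornea, had 7.30, 10.2, 19.7 and 24.6 CPM in AKVPSL GFP+ libraries, against 35.4, 25.9, 47.0 and 58.5 CPM in AKVPSL GFP- libraries. It changed by -1.44 in AKVPSL and -1.52 in AKVPL, with no overlap. The fibril-associated Col14a1 (-1.31 and -1.96) and Col16a1 (-0.75 and -0.93) and the transmembrane Col13a1 (-4.23 and -4.95) and Col17a1 (-2.32 and -1.60), a hemidesmosome protein, fell in both genotypes. The Col13a1 values rested on 19 summed counts in AKVPSL GFP+ and 52 in AKVPL GFP+ libraries. Col8a2, Col26a1, Col6a5 and Col22a1 passed in AKVPL and not in AKVPSL, and Col23a1 (-2.01) and Col6a6 (-1.79) in AKVPSL and not in AKVPL. Col22a1 had 1 summed count in AKVPSL GFP+ and 1 in AKVPSL GFP-, too few for a call. Col26a1 had 8 and 17 and Col6a5 15 and 34 in AKVPSL GFP+ and GFP-. Their lack of a call in AKVPSL therefore does not show a sort effect limited to AKVPL. With the replicate block Col8a2 (-1.47) and Col6a5 (-1.45) also passed in AKVPSL and Col23a1 (-1.04) in AKVPL, while Col22a1 no longer passed in AKVPL (-1.11). The call of Col22a1 in AKVPL (-1.20) ended without AKVPL GFP+ replicates 1, 2 or 4 or AKVPL GFP- replicates 1 or 4 (-1.21 to -0.98), that of Col23a1 without AKVPSL GFP- replicate 4 (-1.47), and that of Col6a6 without AKVPSL GFP+ replicates 1, 2 or 3 or AKVPSL GFP- replicates 3 or 4 (-2.01 to -1.31). Apart from Col7a1, Col9a3, Col10a1 and Col18a1, no collagen gene passed the main test of a difference between the genotypes in that effect. With the replicate block Col14a1 (0.72) and Col23a1 (-1.03) passed too. Over the settings with all libraries kept, 2 to 10 genes passed higher and 1 to 3 lower.

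**Figure D3:**
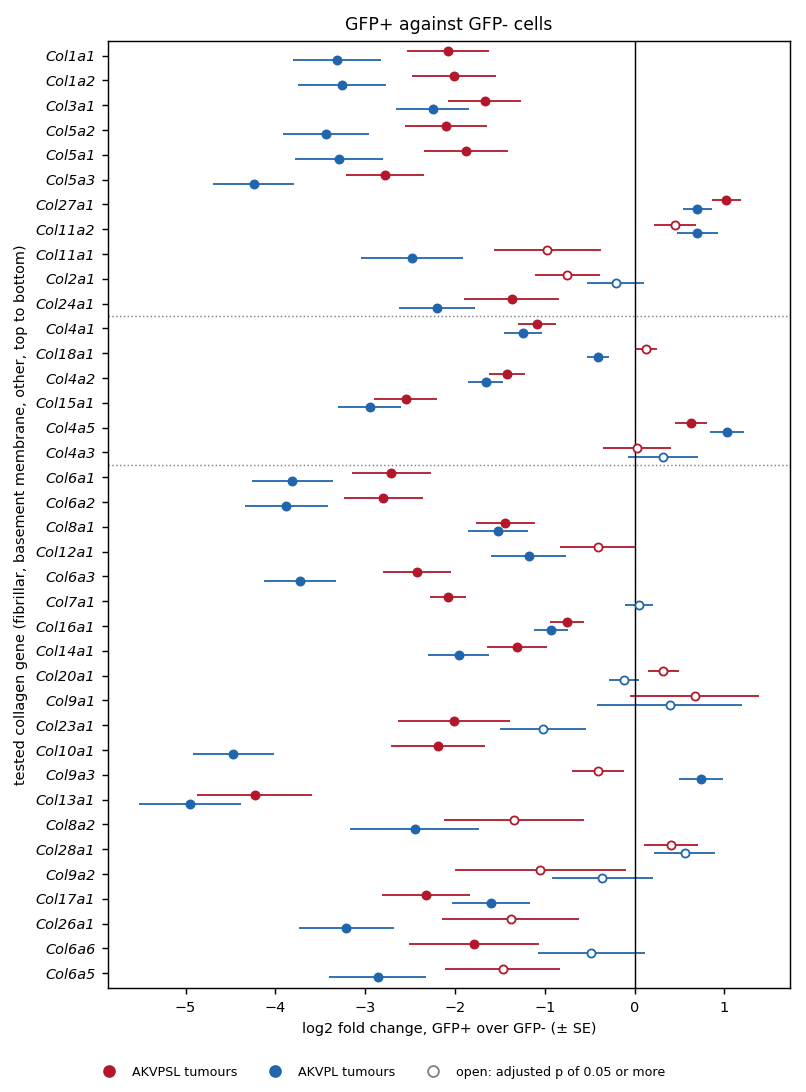
Log2 fold change of GFP+ over GFP- cells (horizontal axis, ± SE) for the tested collagen genes except Col22a1, in AKVPSL and AKVPL tumours, with open points where the adjusted p was 0.05 or more. Most points lie left of 0, from -4.95 for Col13a1 in AKVPL, which had 52 summed counts in AKVPL GFP+ libraries. Col27a1 and Col4a5 lie right of 0 with closed points in both genotypes.

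Markers of fibroblasts, pericytes and smooth muscle, endothelium and leukocytes were mostly lower in GFP+ cells, against 24.6% of all genes lower in AKVPSL and 16.5% in AKVPL. Fibroblast markers were lower in GFP+ cells for 12 of 12 genes in AKVPSL (median log2 fold change -2.37) and for 9 of 12 in AKVPL (-2.75). Pericyte and smooth muscle markers were lower for 6 of 10 (-2.04) and 8 of 10 (-2.74), endothelial markers for 9 of 12 (-2.91) and 11 of 12 (-2.62), and leukocyte markers for 11 of 12 (-3.20) and 11 of 12 (-2.80). Of the pericyte and smooth muscle list 1 marker was higher in GFP+ cells in each genotype, and of the endothelial list 1 in AKVPSL. Of 14 epithelial markers 5 were lower and 1 higher in GFP+ cells of AKVPSL (median -0.03). In those of AKVPL 0 were lower and 6 higher (0.16). Of all genes tested, 22.4% were higher in AKVPSL and 22.6% in AKVPL. The 8 glial markers went the other way in summed CPM, with 136.5 to 267 in AKVPSL GFP+ against 57.4 to 133 in AKVPSL GFP- libraries, and 149.8 to 181 in AKVPL GFP+ against 78.2 to 146 in AKVPL GFP- libraries. Erbb3, a receptor that epithelial cells carry too, made up most of that sum (means of 184 and 76.2 CPM in AKVPSL, 160.2 and 102 CPM in AKVPL, for GFP+ and GFP- cells in each), and of 4 glial markers tested 1 rose in each genotype. The part of these cells in the collagen differences was not tested.

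AKVPSL tumours were compared with AKVPL tumours within each sort, which addresses what goes with the S in the name. In GFP- cells nearly all collagen genes were lower in AKVPSL, with 33 of 39 having fallen and 2 having risen, where 30.7% of all genes tested fell and 32.0% rose (62.7% in either direction). The medians were -1.66 for the collagen genes and 0.00 for all genes. In GFP+ cells 16 fell and 3 rose, where 28.1% of all genes fell and 24.9% rose (53.0% in either direction), with medians of -0.63 and -0.05. Of the calls over all genes in GFP- cells, 51.1% were higher in AKVPSL with TMM scaling and 20.7% with scaling on the epithelial markers, which moved the median of all genes to -0.50. There were 15 genes lower in AKVPSL in both sorts and 2 higher in both, Col4a5 and Col28a1. A further 18 were lower in GFP- cells and did not pass in GFP+ cells. Of these, Col10a1 and Col18a1 passed the test of the difference itself.

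Col7a1 (chromosome 9, 108953586 to 108984875), the anchoring fibril collagen, differed more between the genotypes than any other collagen gene with over 3 summed counts in each group. It had 1.21, 2.18, 1.33 and 2.63 CPM in AKVPSL GFP+ libraries, against 149, 177, 143 and 135 CPM in AKVPL GFP+ libraries. In GFP- cells it had 6.62, 9.25, 7.66 and 6.89 CPM in AKVPSL libraries, against 161, 159, 139.9 and 123 CPM in AKVPL libraries. The genotypes were far apart in both sorts, with log2 fold changes of -6.39 ± 0.21 (84.0-fold lower, adjusted p = 1.03e-13) in GFP+ and -4.26 ± 0.18 (19.2-fold lower, adjusted p = 2.88e-12) in GFP- cells. By RPKM it ranked 7 of the 44 collagen genes in AKVPL GFP+ cells and 25 in AKVPSL GFP+ cells. Within AKVPSL it was lower in GFP+ than in GFP- cells (-2.08 ± 0.20, adjusted p = 8.12e-07, no overlap), and within AKVPL it did not differ by more than the spread (0.05 ± 0.16). The difference between those effects was -2.13 ± 0.25 (adjusted p = 2.51e-05).

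Several other genes, most of them neither fibrillar nor of the basement membrane, were lower in AKVPSL in both sorts. Col12a1 (chromosome 9, 79598987 to 79721141), a fibril-associated collagen that bridges fibrils, had 15.1, 22.4, 50.2 and 63.1 CPM in AKVPSL GFP+ libraries, against 159.5, 164, 184 and 157 CPM in AKVPL GFP+ libraries. In GFP- cells it had 37.5, 22.1, 51.3 and 88.4 CPM in AKVPSL libraries, against 426, 321, 379 and 374 CPM in AKVPL libraries. The genotypes did not overlap in either sort, and the log2 fold changes were -2.15 ± 0.44 (adjusted p = 0.000903) in GFP+ and -2.91 ± 0.45 (adjusted p = 6.91e-05) in GFP- cells. Its sort effect in AKVPL, -1.18 ± 0.42 (adjusted p = 0.0401), did not pass when any 1 AKVPL library was left out (-1.24 to -1.12). Col8a1, with its AKVPSL values given above, was lower in AKVPSL by 1.58 log2 units in GFP+ and 1.66 in GFP- cells, with no overlap. Its AKVPL libraries had 50.02, 41.3, 44.3 and 48.1 CPM in GFP+ cells, and those of GFP- cells had 158, 103.3, 151 and 113 CPM. Col16a1 (-1.49 and -1.68), Col20a1 (-0.52 and -0.96), Col2a1 (-1.69 and -1.15), Col17a1 (-1.77 and -1.05), Col9a2 (-3.96 and -3.28) and Col23a1 (-4.10 and -3.11) were also lower in GFP+ and in GFP- cells. The call of Col17a1 in GFP- cells ended without AKVPSL GFP- replicates 3 or 4 or AKVPL GFP- replicates 1, 2 or 4 (-1.03 to -0.76), and that of Col20a1 in GFP+ cells without AKVPSL GFP+ replicate 1 or AKVPL GFP+ replicate 3 (-0.44 to -0.43). Col9a2 rested on 9 and 15 summed counts in AKVPSL GFP+ and GFP-. Col22a1 had 1 summed count in AKVPSL GFP+ against 64 in AKVPL GFP+, a ratio of 72.0 with an exact 95% interval of 12.5 to 2890, which covers counting error only. In GFP- cells it had 1 against 116 counts, a ratio of 130 with an interval of 22.9 to 5190.

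Col9a3, a chain of the fibril-associated type IX, had 0.792, 0.837, 0.933 and 0.698 CPM in AKVPSL GFP+ libraries, against 4.31, 4.94, 6.99 and 6.37 CPM in AKVPL GFP+ libraries. In GFP- cells it had 0.852, 1.57, 1.24 and 0.726 CPM in AKVPSL libraries, against 3.97, 3.75, 3.58 and 2.03 CPM in AKVPL libraries. The genotypes did not overlap, and the log2 fold changes were -2.78 ± 0.28 (adjusted p = 1.05e-07) in GFP+ and -1.63 ± 0.27 (adjusted p = 4.8e-05) in GFP- cells. Its rise in GFP+ cells of AKVPL, 0.74 ± 0.25 (adjusted p = 0.0263), did not pass without AKVPL GFP+ replicates 3 (0.62) or 4 (0.68) or AKVPL GFP- replicate 4 (0.58). Its gene overlaps Tcfl5, which held at most 0.604 CPM on average in a group and was itself lower in AKVPSL (-1.44 in GFP+ and -1.24 in GFP- cells).

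**Figure D4:**
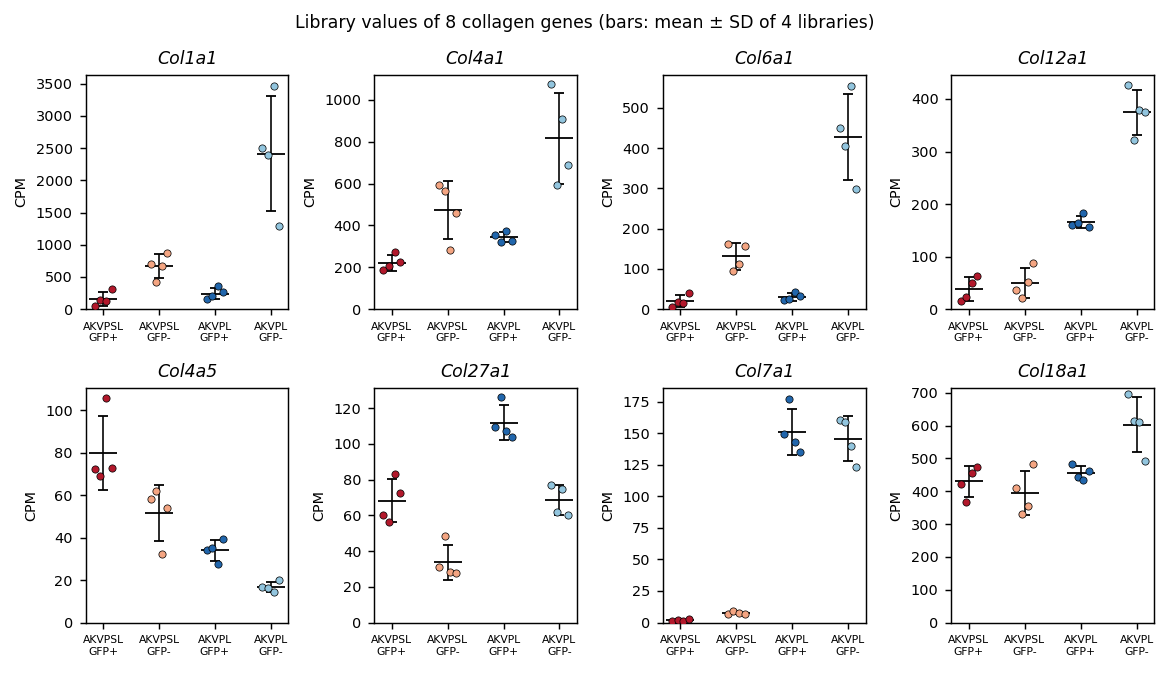
CPM of 8 collagen genes in each library of the 4 groups, with the mean and SD of 4 libraries as bars. Col1a1 and Col6a1 are highest in AKVPL GFP-, Col7a1 and Col12a1 are high in both AKVPL groups, Col4a5 is highest in AKVPSL GFP+ (68.7 to 106 CPM), and Col18a1 varies least across the groups.

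The genes of types I, III and V and the main chains of type VI were lower in AKVPSL in GFP- cells, and did not pass in GFP+ cells, where the genotypes overlapped. Among the fibrillar genes 3 of 11 fell in GFP+ cells (Col2a1, Col24a1 and Col27a1) and 10 of 11 in GFP- cells. The Col24a1 call in GFP+ cells (-1.29) ended without AKVPSL GFP+ replicates 1 or 2 or AKVPL GFP+ replicates 1, 2 or 3 (-1.38 to -1.04). It also ended with the replicate block (-1.32), which here joins different tumours by number alone and so carries no weight. Col1a1 changed by -1.85 ± 0.46 (adjusted p = 0.00301) in GFP- and by -0.63 ± 0.45 (adjusted p = 0.257) in GFP+ cells. AKVPSL GFP+ replicate 4 was the highest Col1a1 library of its group, so leaving it out lowers the group mean by construction. Without it the GFP+ value was -1.20 and passed. The same holds for Col1a2 (-0.62, and -1.24 without it), Col3a1 (-0.63 and -1.13), Col5a2 (-0.18 and -0.89), Col6a1 (-0.60 and -1.20) and Col6a2 (-0.54 and -1.08). Without that library 22 collagen genes were lower in AKVPSL GFP+ rather than 16. Over all fits that left out 1 library this count ran from 13 to 22. The calls gained follow from the choice of library and do not show a genotype difference in GFP+ cells. AKVPSL GFP+ replicate 4 also had the highest summed fibroblast markers of its group, 182 CPM against 100.5 to 136 CPM in the other 3. Gsn, the largest part of that sum, ran from 78.02 to 106.8 CPM over the group. In GFP- cells Col1a2 changed by -1.87, Col3a1 by -1.22, Col5a2 by -1.51, Col6a1 by -1.70 and Col6a2 by -1.63, with no overlap. Col27a1 was lower in AKVPSL in both sorts, by 0.71 log2 units in GFP+ and 1.03 in GFP- cells, with no overlap. Col11a2 did not pass in either sort (-0.07 and 0.18).

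Basement membrane genes again split. Col4a1 was lower in AKVPSL in GFP+ (-0.63 ± 0.21, adjusted p = 0.0184) and in GFP- cells (-0.78 ± 0.21, adjusted p = 0.00387), in GFP- cells with overlap. Col4a2 passed in GFP- cells (-0.56 ± 0.20, adjusted p = 0.0222), with overlap, but not in GFP+ cells (-0.31), and the GFP- call ended without AKVPSL GFP- replicate 3 (-0.39), AKVPL GFP- replicate 1 (-0.42) or AKVPL GFP- replicate 3 (-0.47). Col15a1 had 8.02, 23.8, 17.2 and 29.0 CPM in AKVPSL GFP+ libraries, against 34.6, 20.1, 40.8 and 44.7 CPM in AKVPL GFP+ libraries. Its call there (-0.85 ± 0.33, adjusted p = 0.0459) came with overlap and ended without AKVPSL GFP+ replicates 1 or 3 or AKVPL GFP+ replicates 1, 3 or 4 (-0.88 to -0.61). It also ended with the replicate block (-0.93), which here joins different tumours by number alone and so carries no weight. In GFP- cells it fell by 1.24 with no overlap. Col18a1 was lower in AKVPSL in GFP- cells (-0.61 ± 0.12, adjusted p = 0.000308) and not past the threshold in GFP+ cells (-0.08). Col4a5 alone of the class rose, by 1.23 ± 0.18 log2 units (adjusted p = 2.01e-05) in GFP+ and 1.63 ± 0.19 (adjusted p = 9.43e-07) in GFP- cells, with no overlap in either. It ranked 7 among the collagen genes by RPKM in AKVPSL GFP+ cells and 14 in AKVPL GFP+ cells. Outside the class, Col28a1, a beaded-filament-like collagen found around nerves, was higher in AKVPSL by 1.51 in GFP+ and 1.66 in GFP- cells. Col9a1, a further type IX chain, was higher in GFP+ cells by 2.11 (adjusted p = 0.0327), a call that ended without AKVPSL GFP+ replicates 1 or 2 or AKVPL GFP+ replicates 1, 2 or 3 (1.71 to 2.22).

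**Figure D5:**
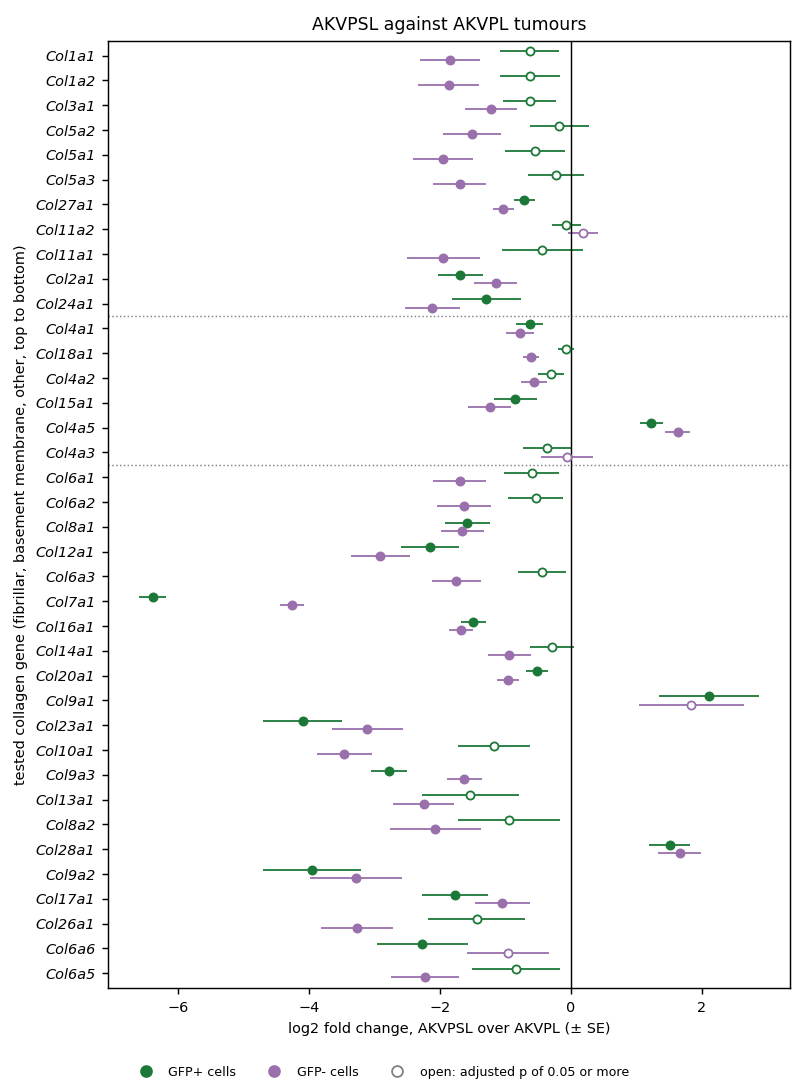
Log2 fold change of AKVPSL over AKVPL tumours (horizontal axis, ± SE) for the tested collagen genes except Col22a1, in GFP+ and GFP- cells, with open points where the adjusted p was 0.05 or more. Col7a1 lies farthest left, at -6.39 in GFP+ and -4.26 in GFP- cells, and Col4a5, Col28a1 and Col9a1 lie right of 0.

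Against 28.1% of all genes lower in AKVPSL in GFP+ and 30.7% in GFP- cells, the marker lists were as follows. Fibroblast markers were lower for 4 of 12 genes in GFP+ cells (median -0.65), a share near that of all genes, and for 6 of 12 in GFP- cells (-0.78). The pericyte and smooth muscle list was lower for 1 of 10 genes in GFP+ (-0.53) and 9 of 10 in GFP- cells (-1.41), the endothelial list for 3 of 12 (-0.89, with 4 higher) and 4 of 12 (-1.09, with 2 higher), and the leukocyte list for 9 of 12 (-1.72) and 6 of 12 (-1.26). Of 14 epithelial markers 4 were lower and 5 higher in GFP+ cells (-0.03), and 1 lower and 9 higher in GFP- cells (0.46). Of all genes tested, 24.9% were higher in GFP+ and 32.0% in GFP- cells. What these cells contributed to the collagen differences was not tested.

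The difference of the sort effects, AKVPSL minus AKVPL, passed for 4 of 39 collagen genes, 2 higher and 2 lower, where 7.02% of all genes tested passed higher and 13.7% lower (20.8% in either direction). Of those calls over all genes, 33.8% were higher with TMM scaling, against 49.2% by DESeq2 size factors, 44.2% by library totals and 90.7% by the epithelial markers. Besides Col7a1, the collagen genes that passed were Col9a3 (-1.15 ± 0.38, adjusted p = 0.0405), Col10a1 (2.28 ± 0.72, adjusted p = 0.0309) and Col18a1 (0.53 ± 0.17, adjusted p = 0.0379). The Col7a1 call stayed under every library left out, and each of the other 3 ended for many of them, with values of -1.23 to -0.93 for Col9a3, 1.74 to 2.26 for Col10a1 and 0.45 to 0.55 for Col18a1. The Col9a3 call stayed only without AKVPSL GFP- replicates 1 or 4, AKVPL GFP+ replicates 1 or 2 or AKVPL GFP- replicates 1 or 2, that of Col18a1 only without AKVPSL GFP+ replicate 2, AKVPSL GFP- replicate 4 or AKVPL GFP- replicate 4, and that of Col10a1 ended without AKVPSL GFP+ replicates 2 or 3, AKVPSL GFP- replicate 2, AKVPL GFP+ replicates 1, 2 or 4 or AKVPL GFP- replicate 4. Col10a1, the collagen of hypertrophic cartilage, had 0.0495, 0.402, 0.233 and 0.164 CPM in AKVPSL GFP+ libraries, against 1.11, 0.668, 1.33 and 0.685 CPM in AKVPSL GFP- libraries. In AKVPL it had 0.431, 0.155, 0.898 and 0.443 CPM in GFP+ libraries, against 7.12, 8.05, 12.9 and 14.4 CPM in GFP- libraries. The AKVPL GFP- libraries stood above the other 12, and the sort effects were -2.19 ± 0.52 in AKVPSL and -4.47 ± 0.45 in AKVPL. The Col10a1 gene lies within Nt5dc1, whose sort effects were 0.24 and -0.02, and the strand of counting is not given. For the fibrillar class the median difference was 1.23 and 0 of 11 genes passed.

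Genes that modify, process and bind collagens were read from 5 lists, beside 47.0% of all genes called in AKVPSL (24.6% lower) and 39.1% in AKVPL (16.5% lower). Of 21 hydroxylases and chaperones, 12 fell and 2 rose in GFP+ cells of AKVPSL and 14 fell and 0 rose in those of AKVPL. Those that rose in AKVPSL were Mia3 (0.57), which helps procollagen leave the endoplasmic reticulum, and the transcription factor Creb3l1 (0.60). Serpinh1, the collagen chaperone HSP47, averaged 21.7 CPM in AKVPSL GFP+ and 141 CPM in AKVPSL GFP- cells (log2 fold change -2.71). In AKVPL its mean was 37.3 CPM for GFP+ and 333 CPM for GFP- cells (-3.16). Plod2, a lysyl hydroxylase, changed by -2.52 in AKVPSL and by -1.77 in AKVPL, and the foldase Fkbp10 by -2.26 and -3.24. Of 11 tested processing and cross-linking enzymes, 9 fell in AKVPSL and 10 in AKVPL, among them the N-propeptidase Adamts14 (-2.70 and -1.21), the C-proteinase Tll1 (-2.68 and -3.03) and the oxidase Loxl1 (-2.51 and -3.08). Of 10 collagen receptors, 4 fell and 1 (Itga2, an integrin chain, 0.87) rose in AKVPSL, a total near the share of all genes, and 6 fell and 1 (the kinase receptor Ddr1, 0.41) rose in AKVPL. Lair1, an inhibitory receptor of leukocytes, changed by -3.39 and -2.65 and the endocytic receptor Mrc2 by -2.39 and -3.95. Of 16 tested basement membrane partners, 11 fell and 1 (Lamb2, a laminin chain, 0.50) rose in AKVPSL and 12 fell and 1 (the proteoglycan Agrn, 0.65) rose in AKVPL, with the laminin chain Lama1 at -3.71 and -3.73 and the linker Nid2 at -3.01 and -3.84.

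The small leucine-rich proteoglycans, of which 8 were tested, held 5 genes that fell and 2 that rose in AKVPSL, and 5 that fell in AKVPL. Fmod, a regulator of fibril width, rose in GFP+ cells of AKVPSL (2.28) and fell in those of AKVPL (-3.64).

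Between the genotypes the lists held genes of both directions, beside 53.0% of all genes called in GFP+ and 62.7% in GFP- cells. The hydroxylase and chaperone list held 8 lower and 5 higher genes in AKVPSL GFP+, and 14 lower and 3 higher in AKVPSL GFP- cells, each against AKVPL, with Colgalt2, a galactosyltransferase of collagen, at -2.53 and -1.95. Among the processing enzymes, Pcolce, the enhancer of procollagen C-proteinase, averaged 230.1 CPM in AKVPSL and 36.4 CPM in AKVPL GFP+ cells (2.66 ± 0.14, adjusted p = 2.38e-11). Its GFP- means were 233 CPM in AKVPSL and 83.1 CPM in AKVPL (1.49). Bmp1, the C-proteinase itself, was lower in AKVPSL by 1.19 log2 units in GFP+ and 1.44 in GFP- cells, and Adamts14 by 3.58 and 2.08. Among the receptors, 1 of 10 was higher in GFP+ cells, and 6 were lower and 2 higher in GFP- cells. Among the partners, 7 of 16 were lower and 2 higher in GFP+ and 14 lower in GFP- cells, led in both by Lama1 (-2.20 and -2.22). Lama3, a laminin chain of epithelial basement membranes, was also lower in AKVPSL (-1.42 in GFP+ and -1.36 in GFP- cells). Of 8 tested small leucine-rich proteoglycans 2 were higher and 2 lower in GFP+ cells, and 1 higher and 3 lower in GFP- cells, which is no larger a share than that of all genes. Fmod averaged 110.8 CPM in AKVPSL and 1.37 CPM in AKVPL GFP+ cells (6.46 ± 0.53, adjusted p = 1.95e-07), and Prelp, which links basement membranes to stroma, averaged 186 CPM in AKVPSL and 8.60 CPM in AKVPL GFP+ cells (4.46 ± 0.40). Podn, another member, was lower in AKVPSL by 2.34 in GFP+ and 2.83 in GFP- cells.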

How the data were processed

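RNA from GFP-sorted tumour cells was sequenced in 16 libraries, 4 in each of 4 groups taken from the sample titles. The submitters' processing notes name GSNAP and GRCm38. Per the file headers, the authors' count for a gene is the number of reads aligned uniquely to its model, and the deposited RPKM is adjusted by a size factor. The sources used here do not state the strand of counting, or how that factor and the gene lengths were set. The RefSeq table of GRCm38.p6 matched 31049 of 36528 Gene IDs (85.0%), and unmatched IDs stayed in library sizes and tests.

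Counts were analysed in R 4.3.3 with edgeR 4.0.16: filterByExpr (18072 genes), TMM scaling, 1 mean per group over all 16 libraries, and robust quasi-likelihood F tests, two-sided, adjusted by Benjamini-Hochberg over all tested genes with 0.05 as the threshold. All CPM were scaled by TMM, and an SE is the absolute log2 fold change divided by the square root of F. A group's counts were summed where a gene had 3 or fewer in it, and exact 95% intervals cover counting error only. The test was checked on simulated counts. Alternatives were DESeq2 1.42.0, other scalings, filters, limma 3.58.1 on log2(RPKM + 1) and log2(RPKM + 0.1), leaving out each library, only the 2 groups compared, and the replicate number as a block. In deviation from their group means, same-numbered GFP+ and GFP- libraries of a genotype had correlations of 0.103 to 0.366. Those of unlike number had -0.447 to 0.38 in AKVPSL and -0.19 to 0.127 in AKVPL. In AKVPSL, GFP+ replicate 3 correlated more with GFP- replicate 4 (0.38) than with GFP- replicate 3 (0.103). The labels do not state pairs, and the numbers were used as pairs in the replicate block only, not in the main tests. Same-numbered libraries of the 2 genotypes within a sort had correlations of -0.039 to 0.279. The replicate block of the genotype comparisons matched these by number alone, though they came from different tumours.

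Described in full were the 4 tested genes of each class with the highest mean RPKM and those higher in GFP+ cells or differing in sort effect between genotypes. From the 5 lists of partner genes, those named came from the 3 largest changes past the threshold in a comparison, and a gene so chosen is given in the paired comparison too. Mia3, Creb3l1, Itga2, Ddr1, Lamb2, Agrn and Erbb3 were named after their values were seen. The members and lists were chosen with earlier results of these data known.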

Additional observations from a re-analysis of the deposited data

Results flagged for a closer look

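Within groups of 4 libraries, 3 values stood apart from the other 3 by Dixon's ratio, among 72 groups of genes and libraries examined, where chance alone would give about 1 in 20. Col4a5 had 106 CPM in AKVPSL GFP+ replicate 3, against 68.7 to 72.9 CPM in the other 3. Col11a2 had 25.1 CPM in AKVPSL GFP- replicate 2, against 12.1 to 14.1 CPM, and Col27a1 had 48.3 CPM in the same library, against 27.6 to 30.8 CPM.

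The sort effect differed between the genotypes, by the test of the difference itself, for Col7a1 (-2.13, adjusted p = 2.51e-05), Col9a3 (-1.15, adjusted p = 0.0405), Col10a1 (2.28, adjusted p = 0.0309) and Col18a1 (0.53, adjusted p = 0.0379), all edgeR values on the log2 scale, AKVPSL minus AKVPL. Of these only the Col7a1 call stayed under every library left out. These were 4 of 39 collagen genes, where 20.8% of all genes tested passed.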

How the results depend on the processing

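Of 112 calls of a collagen gene in a comparison, 24 were lost under at least 1 setting and 88 kept their direction and stayed past the threshold under every setting run for them. The counts of genes that fell by sort or by genotype stayed within 1.5 times under all settings, among them 18 to 23 in AKVPSL GFP+ against GFP-. With the replicate number as a block, 5 genes rather than 2 rose in GFP+ cells of AKVPSL (Col9a1, Col11a2 and Col20a1 added), and the calls of Col15a1 (-0.93, AKVPSL against AKVPL in GFP+), Col22a1 (-1.11, sort in AKVPL) and Col24a1 (-1.34, sort in AKVPSL, and -1.32 by genotype in GFP+) were lost, while Col3a1 (-0.73 by genotype in GFP+) and Col9a1 (2.15 by genotype in GFP-) gained one, as did Col6a5, Col8a2 and Col23a1 by sort and Col14a1 and Col23a1 in the difference of sort effects. In the genotype comparisons that block joined libraries of different tumours by number alone, so its gains and losses there have no basis in the design. Leaving out 1 library gave 1 to 4 genes higher in AKVPSL GFP+, 2 to 4 in AKVPL GFP+, and 0 to 6 higher (6 without AKVPSL GFP+ replicate 1) and 1 to 2 lower in the difference of sort effects. The 4 genes higher in AKVPL GFP+ became 2 with DESeq2 size factors or no filter and 1 with scaling on the epithelial markers. For the difference of sort effects the 2 higher became 4 with DESeq2, 9 with epithelial scaling, 10 on log2(RPKM + 1) and 7 on log2(RPKM + 0.1), and the 2 lower became 1 with DESeq2 size factors, library totals, epithelial scaling, no filter or log2(RPKM + 0.1). Values near 0 changed sign. Col7a1 by sort in AKVPL (0.05) became -0.05 with DESeq2 or its size factors, -0.02 with totals, -0.33 with epithelial scaling, -0.04 with no filter or on either RPKM scale, -0.06 with only those 2 groups, and -0.03 or -0.02 without 1 library. Without 1 library Col11a2 by genotype ran from -0.21 to 0.04 in GFP+ and from -0.10 to 0.34 in GFP- cells (-0.31 with epithelial scaling), Col5a2 by genotype in GFP+ cells from -0.89 to 0.10, and Col12a1 by sort in AKVPSL from -0.80 to 0.02. The cause was not tested. Depth limits Col6a5, Col6a6, Col9a2, Col10a1, Col13a1, Col17a1, Col22a1, Col24a1, Col26a1 and the 5 untested genes. In AKVPSL GFP+ the summed counts were 15 for Col6a5, 20 for Col6a6, 19 for Col13a1, 30 for Col17a1 and 8 for Col26a1.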
